A study of Mus musculus with 3 samples.

Results

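Cytosolic ribosomal protein genes, the rows with symbols in Rpl or Rps for proteins of the large and the small subunit of the ribosome, were described in 3 single-cell libraries of macrophages from mouse sciatic nerve. Rows entered when the symbol began with Rpl or Rps followed by a digit, or was of the Rplp or Rpsa type, and when the row reached at least 10 CPM (UMIs scaled to a total of 1000000 per library) in any library. UMIs are tags that count each captured RNA molecule, and a library's UMIs were summed over its cells. Kinase rows (Rps6k, 10 rows) and rows with -ps in the name were left out. This gave 84 genes of the 27998 in the tables, 50 with large subunit names and 34 with small subunit names. Of the 103 rows with a matching symbol, 16 were left out for -ps and 3 for a low level. The rule uses a level in any library and no difference between libraries.

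The libraries came from C57BL/6 mice, an inbred strain, and held macrophages of uninjured sciatic nerve (steady state), of nerve 1 day after crush and of nerve 5 days after crush. Crush severs the axons of the nerve and leaves its sheath in place. Each time was 1 library made with 10x Genomics droplets, so no replicate spread could be had, no test was possible, and each difference describes these libraries. The sources used here do not give the sort that selected the cells or the number of animals behind a library.

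The ribosome joins a large and a small subunit, and each holds ribosomal RNA and a large set of proteins needed in near equal numbers. Messenger RNAs of these proteins are long-lived and abundant, and in mammals they begin with a run of pyrimidines through which growth signals control their translation (terminal oligopyrimidine, or TOP, mRNAs). A few ribosomal proteins exist in paired versions made from separate genes, and some act outside the ribosome, for example on the p53 regulator Mdm2.

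After barcodes with fewer than 200 detected genes or over 10% mitochondrial UMIs were left out, 728 steady-state cells, 2793 day 1 cells and 2059 day 5 cells remained. In that order, total UMIs were 1656510, 7963091 and 5524496, and the median cell held 2238.5, 2555 and 2473 UMIs. The 10 defining genes of macrophages and monocytes were detected in every library and summed to between 36276 and 47788 CPM. Other cell types were faint: the sum of 7 Schwann cell genes lay between 55.5 and 315 CPM, with Sox10 at 0 in each library, and the sum of 7 fibroblast genes between 116 and 235 CPM. No barcode was shared by all 3 libraries, and 2 to 11 were shared by a pair. The part of these other cells in the results was not tested.

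Ribosomal protein genes took more of the RNA at day 5 than at the other times. They made up 12.7% of all UMIs in steady state (12.69 to 12.79), 13.4% at day 1 (13.40 to 13.45) and 16.0% at day 5 (15.96 to 16.02). Here and below, intervals have a level of 95% and take in counting error only. The day 5 sum was 1.25 times that of steady state (1.249 to 1.261) and 1.19 times that of day 1 (1.188 to 1.194). The day 1 sum was 1.05 times that of steady state (1.049 to 1.059), but this direction follows the scaling: the ratio was 0.957 when the libraries were scaled by the median ratio of genes outside the set in place of total UMIs. That scaling moved the median log2 ratio of all genes from 0.11 to -0.05 for day 1 against steady state. A library's sum cannot tell a different level in each cell from a different mix of cells.

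The day 5 difference was seen at the 5th percentile, the median and the 95th percentile of cells. The median cell held 12.6% of its UMIs in these genes in steady state, 13.5% at day 1 and 16.1% at day 5. The 5th percentile was 7.63%, 7.07% and 9.65%, and the 95th was 19.0%, 22.0% and 26.9%, in the same order. Cells with over 20% made up 2.88% in steady state (21 of 728, exact binomial interval 1.79 to 4.38), 9.63% at day 1 (269 of 2793, 8.56 to 10.8) and 24.0% at day 5 (495 of 2059, 22.2 to 25.9). Over 30% were 44 cells at day 5 and 3 at day 1, while steady state had 0 of 728, which allows up to 0.505%. The day 1 library was wider than steady state at both ends, with a lower 5th and a higher 95th percentile. The lowest end was not shifted: cells under 4% were 14 at day 5 (0.680%), beside 2 in steady state (0.275%) and 11 at day 1 (0.394%).

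**Figure D1:**
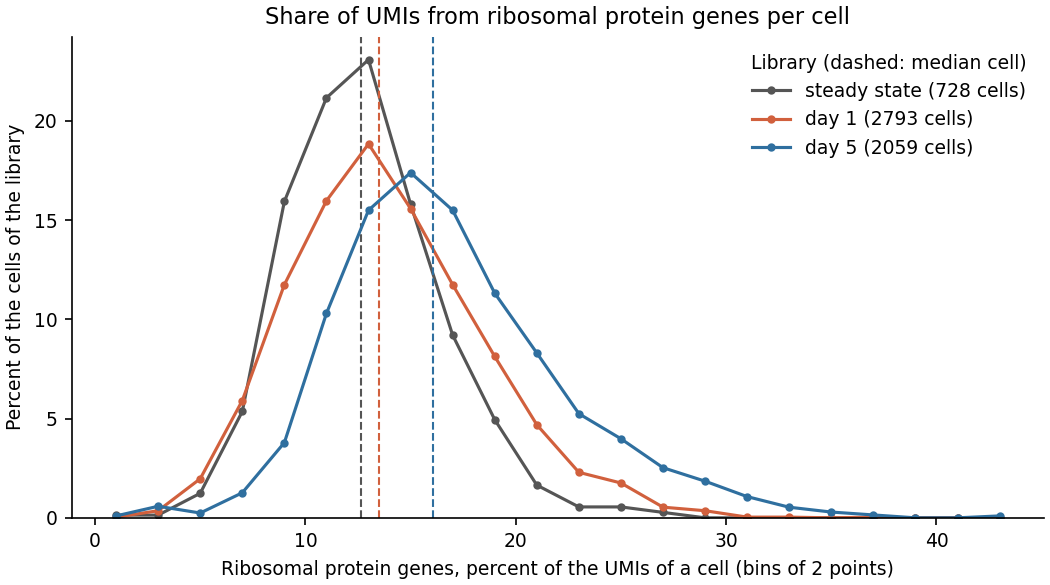
Percent of each library's cells (vertical axis) in bins of 2 percentage points of the share of a cell's UMIs from the 84 genes (horizontal axis), for steady state, day 1 and day 5, with dashed lines at the median cell of 12.6%, 13.5% and 16.1%. The day 5 curve is shifted to higher shares, and the day 1 curve is broader than that of steady state.

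Both subunits took part. Large subunit names held 6.92%, 7.43% and 8.74% of the UMIs at steady state, day 1 and day 5, and small subunit names 5.82%, 6.00% and 7.25%. The ratio of large to small was 1.19, 1.24 and 1.20. At day 1 the large subunit sum was 1.07-fold and the small subunit sum 1.03-fold its steady-state level, and at day 5 they were 1.26-fold and 1.25-fold. The median gene stood at 1412 CPM in steady state, 1516 CPM at day 1 and 1819 CPM at day 5. Of the 100 rows with the most UMIs in a library, 35, 35 and 43 were ribosomal protein genes.

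At day 5 most genes were higher, and by similar amounts. Of the 84 genes, 76 were higher and 8 lower in day 5 than in steady state, with a median log2 ratio of 0.34 beside 0.01 over all 6876 genes that had 10 CPM or more in 1 of the 2 libraries. Against day 1, 70 were higher and 14 lower at day 5, with a median of 0.18 beside -0.11 over all genes. Between day 1 and steady state 59 were higher and 25 lower, with a median of 0.15 beside 0.11 over all genes. Over all genes, 3858 were higher and 3178 lower for day 1 with steady state, 3482 and 3394 for day 5 with steady state. For day 5 with day 1 the counts over all genes were 2807 and 3848. Genes with a mean of at least 200 CPM over the 2 libraries are nearer in level to the set. Their medians were 0.33 for day 1 with steady state (725 genes), 0.22 for day 5 with steady state (676) and -0.16 for day 5 with day 1 (744). Beside these, the median of the 84 was lower for day 1 with steady state and higher in both day 5 comparisons. Of the genes with a mean of at least 200 CPM, 482 were higher and 243 lower for day 1 with steady state. The counts were 417 and 259 for day 5 with steady state, and 281 and 463 for day 5 with day 1. With the median-ratio scaling the counts of the 84 were 73 and 11 for day 5 with steady state, 76 and 8 for day 5 with day 1. For day 1 with steady state they were 43 and 41. Counts over all genes were not made under that scaling. The middle 50% of the genes spanned 0.29, 0.25 and 0.30 log2 units for day 1 with steady state, day 5 with steady state and day 5 with day 1, beside 1.28, 0.97 and 0.71 over all genes. Over the genes with a mean of at least 200 CPM it spanned 1.08, 0.82 and 0.60.

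Large differences were few. Between day 1 and steady state, 5 of the 84 genes were at least 1.5-fold higher (29.9% of all genes were) and 1 was at least 1.5-fold lower (24.8% of all genes). Between day 5 and steady state, 9 were at least 1.5-fold higher (20.9% of all genes) and 0 were lower by that much (21.3%). Between day 5 and day 1, 4 were higher (11.9%) and 3 lower (16.8%). In cells of 3000 to 6000 UMIs, 3 were higher at day 1 and 4 at day 5 than in steady state, and with each cell weighted equally 19 were higher at day 5. Under the median-ratio scaling the counts in the 3 comparisons were 3 higher and 4 lower, 8 and 1, and 12 and 1. The percents of all genes above hold for all cells scaled by total UMIs. They were not computed for those deeper cells, that weighting or that scaling, so these counts cannot be set against all genes. At least 2-fold, only Rps27l and Rpl36al were higher at day 1 than in steady state (2 of 84, beside 16.4% of all genes), and no gene was lower by that much (14.8%). Between day 5 and steady state 0 were higher (9.85% of all genes) or lower (11.1%) by 2-fold, and between day 5 and day 1 0 were higher (4.91%) or lower (5.48%). Over the 3 libraries 45 genes increased in level at both steps, 25 were lowest at day 1, 14 were highest at day 1, and 0 decreased at both steps. The share of all genes with each of these orders was not computed, so the counts cannot be called particular to the set.

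**Figure D2:**
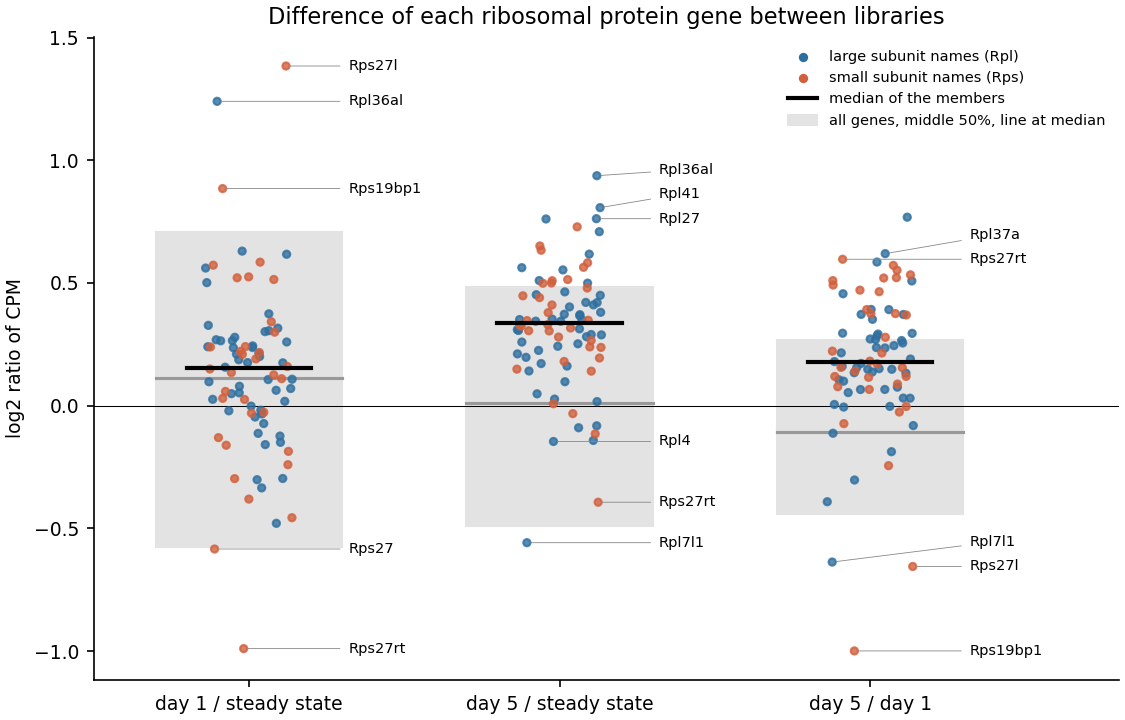
log2 ratio of CPM (vertical axis) for each of the 84 genes in the comparisons of day 1 with steady state, day 5 with steady state and day 5 with day 1, each point 1 gene, with some of the highest and lowest named; black bars are medians of the 84 (0.15, 0.34 and 0.18), and grey boxes hold the middle 50% of all genes. Most points lie in a narrow band, with Rps27l, Rpl36al and Rps19bp1 above it and Rps27rt below it at day 1.

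The gene farthest from the band was Rps27l, which encodes a near copy of the small subunit protein RPS27 and is known as a p53 target. Rps27l (chr9:66946086-66949516, plus strand, GRCm38) stood at 208 CPM in steady state (344 UMIs), 542 CPM at day 1 (4316 UMIs) and 344 CPM at day 5 (1901 UMIs). The day 1 level was 2.61-fold that of steady state (2.34 to 2.92), a log2 ratio of 1.38, and day 5 was 1.66-fold that of steady state (1.48 to 1.86). Its ordinary partner Rps27 (chr3:90212522-90213651, minus strand) ran the other way at day 1, with 2645 CPM in steady state, 1764 CPM at day 1 and 2586 CPM at day 5. At day 1 Rps27 was 1.50-fold lower than in steady state after rounding (1.45 to 1.55). Its log2 ratio of -0.5843 falls just short of a 1.5-fold difference, so Rps27 is not in the count of genes lower by that much. A further row, Rps27rt (chr9:114982366-114982739, minus strand), had 1659.5 CPM in steady state, 835 CPM at day 1 and 1263 CPM at day 5, and was 1.99-fold lower at day 1 than in steady state (1.90 to 2.08). Rps27l thus peaked at day 1, where Rps27 and Rps27rt were lowest.

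The coding sequences of the 3 genes show which of these rows can be told apart. They are given as in the GENCODE vM21 transcripts of GRCm38, start to stop codon, with capitals at the bases that differ from Rps27.
Rps27: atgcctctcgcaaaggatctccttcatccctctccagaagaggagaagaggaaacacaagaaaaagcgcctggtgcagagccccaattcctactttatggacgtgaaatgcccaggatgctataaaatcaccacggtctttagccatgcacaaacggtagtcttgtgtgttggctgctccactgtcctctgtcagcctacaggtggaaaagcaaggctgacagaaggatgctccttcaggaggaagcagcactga
Rps27rt: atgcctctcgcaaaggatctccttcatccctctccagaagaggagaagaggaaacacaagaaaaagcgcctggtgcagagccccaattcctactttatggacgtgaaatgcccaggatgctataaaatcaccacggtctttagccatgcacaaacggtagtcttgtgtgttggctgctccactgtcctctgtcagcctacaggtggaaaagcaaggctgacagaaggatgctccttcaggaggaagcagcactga
Rps27l: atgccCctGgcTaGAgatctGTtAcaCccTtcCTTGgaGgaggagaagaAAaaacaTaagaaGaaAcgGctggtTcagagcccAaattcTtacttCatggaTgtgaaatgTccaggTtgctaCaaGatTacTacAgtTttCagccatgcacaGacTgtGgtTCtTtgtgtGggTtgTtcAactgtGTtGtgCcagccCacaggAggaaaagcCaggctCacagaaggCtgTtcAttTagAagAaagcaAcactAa
Rps27rt matched Rps27 at 255 of 255 bases, so reads within the coding part cannot be assigned to either, and the 2 rows are uncertain as separate values. Their last 100 transcript bases overlapped over 67 bases with 0 mismatches. Summed, they had 4304 CPM in steady state, 2599 CPM at day 1 and 3849 CPM at day 5. Their sum was 1.66-fold lower at day 1 than in steady state (1.61 to 1.70). How reads that match both rows were counted was not checked, so the sum may leave some of them out. Rps27l differed from Rps27 at 61 of 255 bases but at 3 of 84 encoded residues, so its reads are distinct while its protein is nearly the same.

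As a share of the UMIs of the Rps27l and Rps27 rows together, Rps27l made up 7.28% in steady state (6.56 to 8.06), 23.5% at day 1 (22.9 to 24.1) and 11.7% at day 5 (11.3 to 12.3). In the 14 alternative treatments of the counts, the log2 ratio of Rps27l between day 1 and steady state ranged from 1.01 to 1.53, and that of Rps27rt from -1.13 to -0.89. Neither ratio changed direction, though the treatments that only added -ps rows or changed the low filter cannot move it. For Rps27l between day 5 and steady state the log2 ratio was 0.73, and 0.33 in cells of 3000 to 6000 UMIs, of which steady state had 118. The level of all 3 rows summed was 4512 CPM in steady state, 3141 CPM at day 1 and 4193 CPM at day 5, so the gain in Rps27l UMIs was smaller than the drop in the other rows.

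Rpl36al and Rpl36a showed a related pattern in the large subunit. Rpl36al (chr12:69182731-69184083, minus strand) had 378 CPM in steady state, 893 CPM at day 1 and 724 CPM at day 5, and Rpl36a (chrX:134585654-134588062, plus strand) had 639, 663 and 811 CPM. Rpl36al was 2.36-fold higher at day 1 than in steady state (2.18 to 2.57) and 1.91-fold higher at day 5 than in steady state (1.76 to 2.09). Rpl36a was 1.04-fold (0.970 to 1.11) and 1.27-fold (1.19 to 1.36) its steady-state level at day 1 and day 5. Rpl36al made up 37.2% of the UMIs of the pair in steady state (34.8 to 39.5), 57.4% at day 1 (56.5 to 58.3) and 47.1% at day 5 (46.1 to 48.2). The encoded residues differ at 0 of 106. At day 1 Rpl36al was thus higher without a lower level of Rpl36a, where Rps27 was lower beside Rps27l. The pair together had 1017 CPM in steady state, 1555 CPM at day 1 and 1535 CPM at day 5. Their sum was 1.53-fold higher at day 1 than in steady state (1.45 to 1.61). Over the alternatives the log2 ratio of Rpl36al for day 1 with steady state ranged from 0.97 to 1.34.

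**Figure D3:**
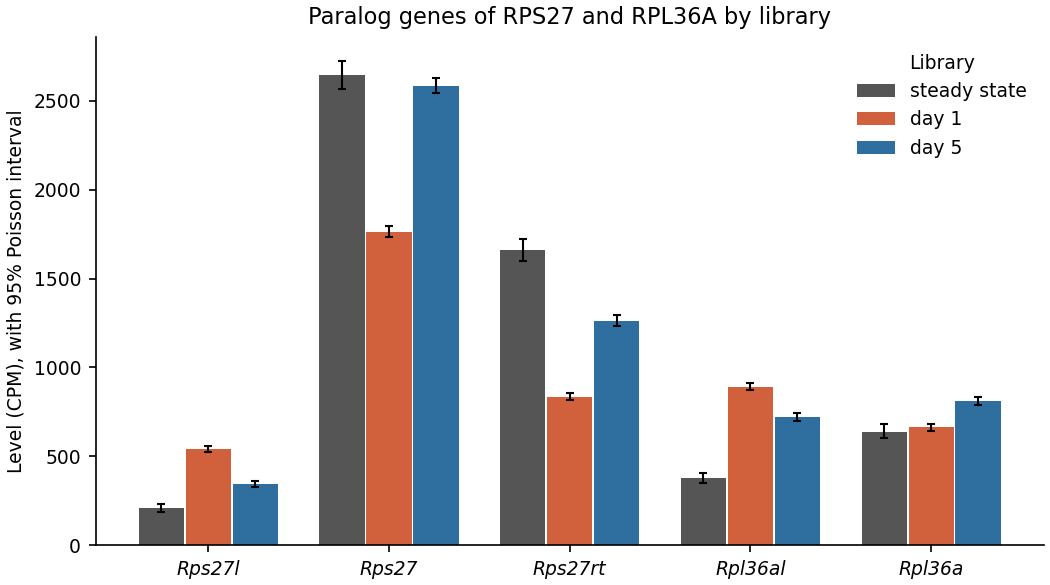
Level in CPM (vertical axis, from 0, bars with 95% Poisson intervals from counting) of Rps27l, Rps27, Rps27rt, Rpl36al and Rpl36a in steady state, day 1 and day 5. Rps27l and Rpl36al are highest at day 1 (542 and 893 CPM), while Rps27 and Rps27rt are lowest there (1764 and 835 CPM).

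Among the other paralogs, Rpl22l1, a low-level copy of Rpl22, had 40.4 CPM in steady state, 49.98 CPM at day 1 and 53.8 CPM at day 5, and made up 7.88%, 7.77% and 8.04% of the pair. Rpl7l1, a diverged paralog of Rpl7 with 40.7% identity of encoded residues, had 93.6, 98.8 and 63.5 CPM, and was 1.56-fold lower at day 5 than at day 1 (1.37 to 1.77). Rpl6l, which GENCODE lists as a processed pseudogene of chromosome 10 and whose reads can be shared with Rpl6, had 449, 528 and 464 CPM. Rpl6 had 1734, 1679 and 2027 CPM, so the pair together stayed between 2183 and 2491 CPM.

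Rps19bp1 does not encode a ribosomal protein. Its product binds RPS19 and, in human cells, the deacetylase SIRT1. It had 53.1 CPM in steady state, 98.1 CPM at day 1 and 49.1 CPM at day 5. It was 1.85-fold higher at day 1 than in steady state (1.48 to 2.33) and 1.999-fold lower at day 5 than at day 1 (1.74 to 2.30). In cells of 3000 to 6000 UMIs its log2 ratio of day 1 with steady state was 0.32 in place of 0.88. Rps19bp1, Rpl22l1 and Rpl7l1 were the genes nearest to the 10 CPM limit. Just outside it were Rpl10l with 0 UMIs in each library, Rpl39l with 1.26 CPM at day 1 and 0 elsewhere, and Rpl3l with 1.51 CPM at day 1, 0.362 CPM at day 5 and 0 in steady state. The pair of named retrocopies Rpl10l and Rpl39l is known from testis in mouse, and Rpl3l from striated muscle.

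Abundant genes that dipped at day 1 included Rps4x, Rps27 and Rps14. Rps4x, the X-linked gene of a small subunit protein, had 2567, 1871 and 2581 CPM. Rps14 had 3830 CPM in steady state, 3116 CPM at day 1 and 4381 CPM at day 5. In the day 5 library Rps14 stood above the steady-state level, and Rps4x and Rps27 were within counting error of it.

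Rpl41 and Rpl27 passed 1.5-fold over steady state already at day 1, and Rps27a was just under it. Rpl41, which encodes the shortest protein of the set with 25 residues, had 2913 CPM in steady state, 4468 CPM at day 1 and 5096 CPM at day 5. That was 1.53-fold (1.49 to 1.58) and 1.75-fold (1.70 to 1.80) the steady-state level. In cells of 3000 to 6000 UMIs the log2 ratios were 0.33 and 0.52, in place of 0.62 and 0.81. Rpl27, of the large subunit, had 619, 958 and 1050.2 CPM. Rps27a, which is translated as a fusion of ubiquitin and a small subunit protein, had 1656, 2484 and 2601 CPM, and was 1.4998-fold its steady-state level at day 1 (1.44 to 1.56). Fau, a ubiquitin-like fusion gene that the symbol rule does not include, had 2549, 2506 and 3355 CPM.

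Rpl37a and Rpl39 differed most at day 5. Rpl37a, of the large subunit, had 2770.3 CPM in steady state, 2767 CPM at day 1 and 4249.6 CPM at day 5. Its day 5 level was 1.54-fold that of day 1 (1.51 to 1.56). Rpl39, whose protein lines the tunnel through which the new chain leaves the ribosome, had 221, 249.5 and 374 CPM. At the other end, Rpl4 and Rpl7 were lower at day 5 than in steady state, Rpl4 with 1183 against 1309 CPM and Rpl7 with 1295 against 1428 CPM. Rpl14 stood at 1923 CPM at day 5 and 2036 CPM in steady state. Rpl35 had 1119, 1379 and 1051.5 CPM, and was 1.31-fold lower at day 5 than at day 1 (1.27 to 1.35).

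The stalk genes Rplp0, Rplp1 and Rplp2, whose proteins recruit the elongation factors, were each highest at day 5. In the order of the times, Rplp0 had 2074, 2382 and 2684 CPM, Rplp1 had 1583, 1611 and 1923 CPM, and Rplp2 had 1199.5, 1493 and 1654 CPM. Rpsa, which also encodes the laminin receptor, had 789, 860.5 and 948 CPM. The day 5 levels of these 4 genes were 1.20-fold to 1.38-fold those of steady state. In cells of 3000 to 6000 UMIs the log2 ratio of day 5 with steady state was -0.03 for Rplp1 and -0.04 for Rpsa. Other genes with many UMIs were Rps9 with 3548, 3474 and 4813 CPM, Rpl13 with 3582, 3741 and 4105 CPM, and Rps19, mutated in Diamond-Blackfan anemia in humans, with 3080.0, 3590.1 and 4355 CPM. These levels are UMIs per gene and not per length.

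Rows named -ps, which are mostly annotated as pseudogenes, held 0.356%, 0.462% and 0.429% of the UMIs at steady state, day 1 and day 5. Of these, 12 rows reached 10 CPM, with Rpl9-ps6 (627, 831 and 756 CPM), Rpl23a-ps3 (690.0, 744 and 812 CPM) and Rpl10-ps3 (425, 690 and 483 CPM) among the largest. Their sum was 1.30-fold higher at day 1 than in steady state and 0.930 times the day 1 level at day 5. Reads of their parent genes can match these rows, and how such reads were counted was not checked. The parents' levels are thus uncertain by an amount that is not known here.

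The sequence at the start site was compared with that of all genes, since the pyrimidine run of TOP mRNAs begins at the first transcribed base. A run was taken as C followed by at least 5 C or T, searched on the gene's strand in the 30 bases from 10 before to 20 after the start in RefSeq (GRCm38.p6), where 63 of the 84 genes had a promoter entry. It was found in 36 of 63 (57.1%), beside 25.3% of 17999 genes. Exactly at the listed start it was found in 12 of 63 (19.0%), beside 1.97% of all genes. These windows show a long run (Rpl35, chr2:39005112-39005141, minus strand), the run of Rps27 (chr3:90213629-90213658, minus strand), that of Rps6 (chr4:86857348-86857377, minus strand) and that of Rps27l (chr9:66946076-66946105, plus strand), with the run in capitals, and a window with none (Rpl41, chr10:128549149-128549178, minus strand).
Rpl35: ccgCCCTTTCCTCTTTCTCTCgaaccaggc
Rps27: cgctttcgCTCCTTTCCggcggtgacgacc
Rps6: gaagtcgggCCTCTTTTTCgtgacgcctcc
Rps27l: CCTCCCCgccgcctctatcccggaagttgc
Rpl41: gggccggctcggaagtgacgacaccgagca
The run of Rps27l lies before the listed start, and a further listed start of that gene had none. The median log2 ratio of day 5 with steady state was 0.35 in the 36 genes with a run and 0.35 in the 27 genes without, and for day 1 with steady state 0.20 and 0.16. In the 21 genes with no promoter entry these medians were 0.28 and -0.07. A listed start can lie inside the gene as GENCODE gives it, as for Rpl41, whose gene begins at 128549305. A gene without a run here can thus still be a TOP gene, and these medians cannot compare TOP genes with others. In mitochondrial ribosomal protein genes, which are not TOP genes, the run was found in 18 of 68 (26.5%) and in 0 exactly at the start.

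The cells were clustered without any ribosomal protein row, so that the share could be compared between clusters. The 11 clusters ranged from 10.5% to 18.9% in share. The highest was cluster 3, led by the chemokine gene Ccl8 and by Gm42418 and mt-Co2, with 18.9% over 849 cells of which 760 were from day 5. The lowest was cluster 6, led by Mmp12, Slpi and Cxcl3, genes of a protease, a protease inhibitor and a neutrophil-attracting chemokine, with 10.5% over 375 cells of which 365 were from day 1. The interferon-responding-like cluster 8 (Cxcl10, Rsad2) was next with 11.3%. The monocyte-like cluster 1 (Chil3, Vcan) had 13.2%, the epineurial macrophage-like cluster 7 (Cd209f, Fcna) 12.8%, the dendritic cell-like cluster 11 (Ccr7, Ccl17) 15.5% and the cycling-like cluster 10 (Birc5, Ube2c, with the fibroblast genes Dcn and Igfbp7 also among its leading genes) 16.4%. Cluster 10 held 76 cells.

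Clusters also differed within the day 1 library. Cluster 9, led by Stard6, Ch25h and Ccl12, had 17.5% over its 124 day 1 cells (17.4 to 17.7), and cluster 6 had 10.4% over its 365 (10.36 to 10.47). The median UMIs per cell were near equal, 2780 in cluster 9 and 2824 in cluster 6. Relative to all ribosomal protein UMIs, and against the other day 1 cells, Rpl12 was 1.52-fold (1.38 to 1.66), Rpl5 1.46-fold (1.31 to 1.62) and Rps2 1.36-fold (1.29 to 1.44) higher in cluster 9. Rpl12 lies at the base of the stalk, and RPL5 binds Mdm2 and 5S RNA. Rps27 stood at 0.711 times the other day 1 cells there (0.656 to 0.769).

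Other clusters had extremes of their own, given here on the same scale and against the other cells of the same library. In cluster 5, led by Lilra5 and Hpgd and with 486 of its 525 cells from steady state, Rps27l was 0.614 times (0.493 to 0.764) and Rps27rt 1.17-fold (1.08 to 1.27) the other steady-state cells. Against the cells of all libraries these ratios were 0.436 and 1.85. In the monocyte-like cluster 1 Rpl37a was 0.752 times the other day 1 cells (0.733 to 0.772). Rps27l there was 1.05-fold the other day 1 cells (0.985 to 1.11), in place of 1.56-fold the cells of all libraries. In cluster 6 Rps19bp1 was 1.64-fold the other day 1 cells (1.34 to 1.98). In the epineurial macrophage-like cluster Rps29 was 1.78-fold (1.68 to 1.88) and Rplp0 0.688 times (0.631 to 0.750) the other steady-state cells. In the dendritic cell-like cluster Rpl4 was 1.69-fold the other day 1 cells (1.53 to 1.86), and in the cycling-like cluster Rpsa was 1.39-fold the other day 5 cells (1.23 to 1.58).

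**Figure D4:**
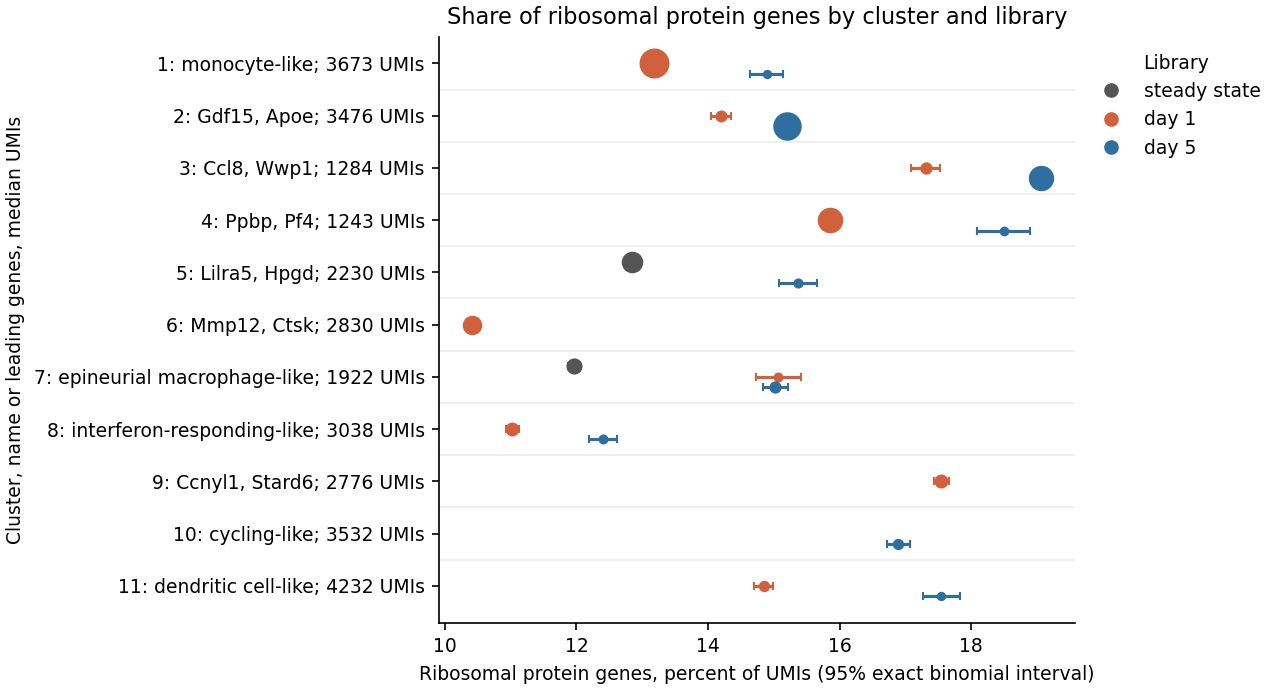
Share of UMIs from the 84 genes in percent (horizontal axis) for each cluster (rows, with its name or leading genes and median UMIs per cell) in steady state, day 1 and day 5; points are pooled shares with 95% exact binomial intervals, point size grows with cell number, and only clusters with at least 20 cells of a library are drawn. Day 5 points lie to the right of day 1 points in clusters 1, 2, 3, 4, 8 and 11, and the day 1 library spans 10.4% in cluster 6 to 17.5% in cluster 9.

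The higher share at day 5 was also seen inside clusters. Of 7 clusters with at least 20 cells in both day 5 and day 1, the share was higher at day 5 in 6, with ratios of 1.07 to 1.18. In the monocyte-like cluster it was 14.9% over 20 day 5 cells and 13.2% over 1163 day 1 cells. In cluster 2, led by Gdf15 and Apoe, it was 15.2% over 1027 day 5 cells and 14.2% over 69 day 1 cells. In the epineurial macrophage-like cluster it was 15.02% over 75 day 5 cells and 15.07% over 28 day 1 cells, the only cluster of the 7 without a difference beyond counting error. Against steady state, the share was 15.02% at day 5 and 11.96% in steady state in that cluster (ratio 1.26, 1.24 to 1.28), and the day 1 cells of that cluster stood as far above steady state (ratio 1.26, 1.23 to 1.29). It was 15.4% at day 5 and 12.8% in steady state in cluster 5 (ratio 1.20, 1.17 to 1.22). Median UMIs per cell were lower at day 5 in both, 1602 against 2219 and 1900.5 against 2236, and the day 1 cells of the epineurial macrophage-like cluster had 1301.5.

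The Rps27l difference between the libraries was not seen inside the epineurial macrophage-like cluster, the only cluster with at least 20 cells in both day 1 and steady state. There Rps27l had 260.0 CPM over 28 day 1 cells and 267 CPM over 203 steady-state cells (ratio 0.975, 0.474 to 1.81). Its share of the Rps27l and Rps27 UMIs was 8.33% at day 1 and 10.3% in steady state there, beside 15.6% to 25.4% in the other 8 clusters with at least 20 day 1 cells. The day 1 value rests on 11 UMIs, and its interval holds both a lower and a higher level. Rps27 had 2861 CPM at day 1 and 2326 CPM in steady state in that cluster (ratio 1.23, 1.01 to 1.49), opposite in direction to the whole libraries. In cluster 5 Rps27l had 192 CPM at day 5 and 174 CPM in steady state (ratio 1.11, 0.562 to 1.98). Rpl36al was higher inside the epineurial macrophage-like cluster, with 1135 CPM at day 1 and 492 CPM in steady state (ratio 2.30, 1.65 to 3.16) and 947 CPM at day 5 (1.92-fold steady state, 1.53 to 2.40). In cluster 5 it had 336 CPM at day 5 and 323 CPM in steady state (ratio 1.04, 0.637 to 1.62), and the difference between the clusters was not tested. A cluster held mostly by 1 library can stand for that library rather than for a kind of cell.

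The share moved with depth per cell. Across cells, Spearman's rho of the share with total UMIs was -0.05 in steady state, -0.19 at day 1 and -0.27 at day 5, as a description over 728, 2793 and 2059 cells that share a library. In cells under 1500 UMIs the median share was 13.6%, 15.01% and 18.1% in steady state, day 1 and day 5. In cells of 3000 to 6000 UMIs it was 12.3%, 12.6% and 14.96%. The order of the libraries was the same in each bin, and in cells of 3000 to 6000 UMIs the day 5 sum was 1.19 times that of steady state and the day 1 sum 1.02 times. Thinned to 1000 UMIs per cell, the median shares were 12.5%, 13.5% and 16.0%, with 90, 297 and 282 shallower cells left out. The clusters of shallow cells, 3 and 4, had median UMIs of 1284 and 1243.

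Genes with short coding sequences had the higher ratios of shallow to deep cells. Spearman's rho between coding length and the log2 ratio of cells under 1500 UMIs to cells of at least 3000 was -0.59 in steady state, -0.82 at day 1 and -0.77 at day 5, over the 83 genes with an annotated coding sequence and with no p, since the genes share their cells. In the 11 genes of at most 300 coding bases the median log2 ratio was 0.35, 0.75 and 0.76. These 11 made up 47.5%, 44.5% and 36.5% of the excess in share of cells under 1500 UMIs over cells of 3000 to 6000. In the 23 genes of at least 600 bases it was -0.18, -0.14 and 0.02. At day 1 Rpl37a had 4726 CPM in shallow cells and 2259 CPM in deep cells (2.09-fold, 2.02 to 2.17), and Rpl41 had 7064 and 3795 CPM (1.86-fold, 1.81 to 1.92). In the other direction Rplp0 had 1729.6 CPM in shallow and 2625 CPM in deep day 1 cells, and Rpl4 732 and 1188 CPM. The same genes held these places at day 5, where Rpl37a had 7034 CPM in shallow and 3374 CPM in deep cells.

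**Figure D5:**
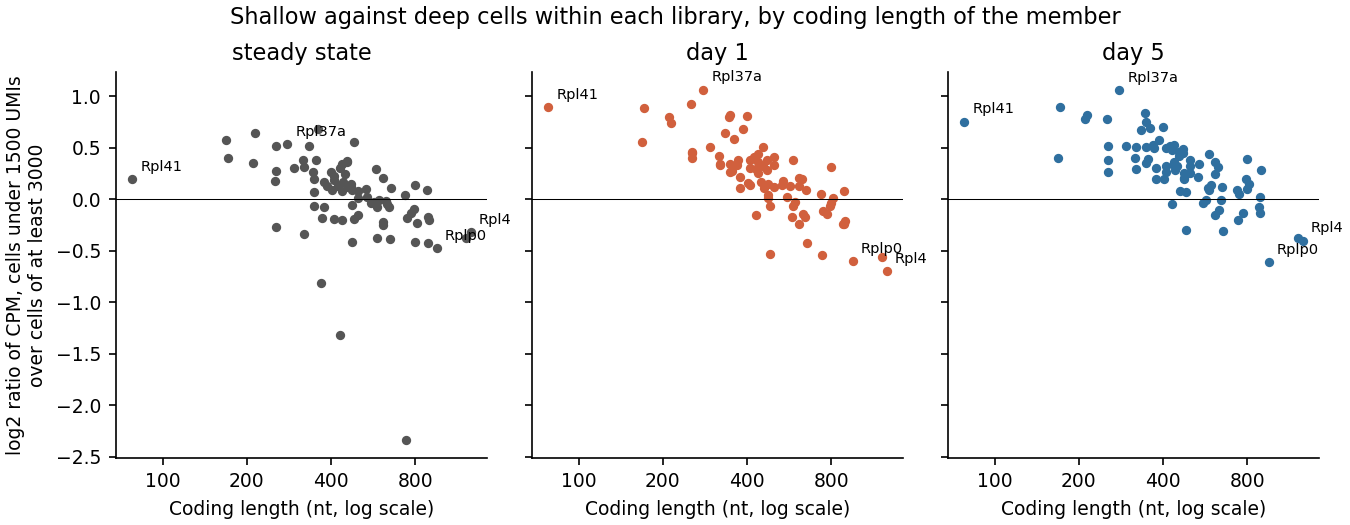
log2 ratio of CPM in cells under 1500 UMIs to cells of at least 3000 UMIs of the same library (vertical axis) against the coding length of the gene in nucleotides (horizontal axis, log scale), 1 point per gene, for steady state, day 1 and day 5. Short genes such as Rpl41 and Rpl37a lie above 0 and long genes such as Rplp0 and Rpl4 below it, with rho of -0.59, -0.82 and -0.77; the lowest steady-state points are genes under 100 CPM.

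The median difference between day 5 and day 1 was larger in the short genes, with a log2 ratio of 0.52 in the 11 short and 0.13 in the 23 long genes. These medians were 0.48 and 0.11 when only cells of 3000 to 6000 UMIs were compared. The relation to length was weaker than that within libraries, with rho of -0.27 over the 83 genes. The short genes ranged from -0.66 to 0.62 and the long genes from -0.64 to 0.52. Rps27, Rps27rt and Rps27l are among the short genes. UMIs of short genes over UMIs of long genes were 0.45 in steady state, 0.43 at day 1 and 0.50 at day 5. Rpl37a, named above as higher at day 5, was also high in cluster 3, the cluster of shallow day 5 cells. Relative to the ribosomal protein sum it was there 1.54-fold the other day 5 cells (1.50 to 1.59) and 1.43-fold the other day 1 cells (1.31 to 1.56). Against the cells of all libraries it was 1.65-fold (1.61 to 1.69). Mitochondrial genes, a sign of RNA quality, held 0.470%, 0.344% and 0.496% of the UMIs in steady state, day 1 and day 5, and their part in the result was not tested.

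Other genes of the translation apparatus were read against all genes, whose median log2 ratios were 0.11 for day 1 with steady state, 0.01 for day 5 with steady state and -0.11 for day 5 with day 1. The 25 measured translation factor and other TOP genes outside the set had median log2 ratios of -0.06 for day 1 with steady state, 0.08 for day 5 with steady state and 0.12 for day 5 with day 1. Summed, they had 13318 CPM in steady state, 13965 CPM at day 1 and 15506 CPM at day 5. In the order of these comparisons, 3, 0 and 0 of the 25 were at least 1.5-fold higher (29.9%, 20.9% and 11.9% of all genes were) and 2, 1 and 0 were lower (24.8%, 21.3% and 16.8%). Eif4a2, a helicase subunit, had 82.8 CPM at day 1 and 170 CPM in steady state (2.05-fold lower, 1.78 to 2.36). Eif3f had 340 CPM at day 1 and 523 CPM in steady state, while Btf3, of the nascent chain complex, had 847 and 542 CPM and Hnrnpa1 had 136 and 83.9 CPM.

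Of the ribosome biogenesis factor genes, more were higher than lower at day 1. Of 34 used, 19 were at least 1.5-fold higher at day 1 than in steady state and 3 lower, beside 29.9% and 24.8% of all genes, with a median log2 ratio of 0.68. Nhp2 and Gar1, of the particles that modify ribosomal RNA, had 204 CPM at day 1 against 67.6 CPM in steady state and 76.4 against 29.6 CPM. Nip7, needed for maturation of the large subunit, had 64.05 against 31.995 CPM. Sbds, which helps release Eif6 from the large subunit, was lower, with 62.2 CPM at day 1 and 112 CPM in steady state. At day 5, 0 of 33 were higher and 17 lower than at day 1, beside 11.9% and 16.8% of all genes, with a median of -0.67, among them Ebna1bp2 with 70.8 against 138 CPM and Eif6 with 143 against 253 CPM. Against steady state, 5 of 32 were higher and 5 lower at day 5, where 20.9% and 21.3% of all genes were. The 34 genes summed to 2413 CPM at day 1 and 1758 CPM in steady state.

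Of the mitochondrial ribosomal protein genes, too, more were higher than lower at day 1. Of 73 used, 40 were at least 1.5-fold higher at day 1 than in steady state and 1 lower, beside 29.9% and 24.8% of all genes, with a median log2 ratio of 0.68. Mrpl20 had 276 CPM at day 1 and 67.0 CPM in steady state (4.11-fold, 3.40 to 5.02), Mrpl52 had 389.8 and 94.8 CPM, and Mrps28 had 162 and 41.0 CPM. At day 5, 0 of 73 were higher than at day 1 (11.9% of all genes were) and 14 lower, with a median of -0.37. The 14 are a share close to the 16.8% of all genes that were lower. Against steady state, 20 of 72 were higher and 4 lower at day 5, beside 20.9% and 21.3% of all genes, with a median of 0.34.

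Of the growth and stress regulators of ribosome production, 8 of 18 were at least 1.5-fold higher at day 1 than in steady state and 2 lower, beside 29.9% and 24.8% of all genes, with a median log2 ratio of 0.48. Mdm2, the p53 regulator that free ribosomal proteins bind, had 64.8 CPM at day 1 and 12.7 CPM in steady state (5.11-fold, 3.31 to 8.33). The p53 target Cdkn1a had 625 and 280.1 CPM, and Eif4ebp1, a brake on translation downstream of mTOR, had 315 and 147 CPM. At day 5 these genes had 40.7, 445 and 174 CPM, between the day 1 and steady-state levels. Mdm2, Cdkn1a and Rps27l shared the order day 1, day 5, steady state from high to low. For day 5 with steady state the counts were 4 higher and 2 lower of 16, beside 20.9% and 21.3% of all genes. For day 5 with day 1 they were 3 higher and 6 lower of 18, beside 11.9% and 16.8%.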

How the data were processed

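The deposited files used here were 3 tables of whole-number UMI counts per gene and cell barcode, not normalized, made by the authors with Cell Ranger 2.0.2 on the mouse build mm10, per the submitters' processing notes. A deposited table that pools the libraries was not used. The sources used here do not give how free RNA was handled.

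Barcodes under 200 detected genes or over 10% mitochondrial UMIs were removed, 6 of 5586. UMIs were summed per library and scaled to CPM. Ratios have exact conditional binomial intervals, levels exact Poisson intervals and shares exact Clopper-Pearson intervals, at 95%. Called doublets (scrublet in scanpy 1.11.5) were 20 of 5580 cells (0.358%). So few calls cannot be relied on, so all cells were kept and doublets remain possible. Cells were clustered by Leiden at resolution 1 on 2000 variable genes, 30 components and 15 neighbours, with ribosomal protein rows left out. A cluster was named when at least 3 markers of a class were 2-fold above the other cells, at least 2 of them among its 10 leading genes. With 1 library per time no test was made, and genes are said to differ past a fold of 1.5 or 2. The ratio code was tested on simulated data.

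Genes were named by a rule: the 6 with the highest mean CPM, the 4 highest and 4 lowest ratios of each comparison, paralogs, stalk genes and the extremes of each cluster, some of which are not reported here. The genes and lists were chosen with earlier results of these data known. Alternatives changed cells, rows, weighting, denominator, scaling and the low filter. Microarray and bulk RNA samples of the study were not analysed here.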

Additional observations from a re-analysis of the deposited data

How the results depend on the processing

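No paired analysis was possible because each time point was 1 library. For the same reason no replicate could be left out. Of 966 values of single genes under 14 alternatives, 902 kept their direction and their side of 1.5-fold, 0 reversed a 1.5-fold call, 19 dropped under it, 22 passed it and 23 moved. The alternatives that added -ps rows or changed the low filter cannot move the ratio of a single gene. Their values are among the 902 by construction and say nothing on stability. The shares below are for steady state, day 1 and day 5, the ratios of sums for day 1 with steady state, day 5 with steady state and day 5 with day 1. The percent of all genes past 1.5-fold was not computed under each alternative. The counts of genes below thus describe the set alone.

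With all deposited barcodes, without called doublets or with mitochondrial UMIs left out of the total, 2 genes were at least 1.5-fold lower at day 1 than in steady state in place of 1, and the last gave shares of 12.80%, 13.47% and 16.07%. Without dendritic cell-like cells that count was 2 and the day 1 share 13.38%. With at least 1000 UMIs per cell, the day 1 and day 5 shares were 13.36% and 15.85%, the day 5 ratios 1.247 and 1.187, and 1 gene was lower at day 5 than in steady state. With -ps rows added, the shares were 13.10%, 13.89% and 16.42%, the ratios 1.060 and (day 5 with day 1) 1.182, 10 rows were higher and 2 lower at day 1 than in steady state, and 5 lower at day 5 than at day 1. As a mean over cells, the shares were 12.79%, 13.89% and 16.87%, the ratios 1.086, 1.319 and 1.214, and 19 genes were higher at day 5 than in steady state.

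Under median-of-ratios scaling the ratios were 0.957, 1.222 and 1.277. At day 1, 3 genes were then higher and 4 lower than in steady state, at day 5 1 lower than in steady state, and at day 5 12 higher and 1 lower than at day 1. With member UMIs left out of the total, the ratios were 1.062, 1.303 and 1.227. With a filter of 100 CPM, 1 gene was lower at day 5 than at day 1, since genes under the filter were not counted.

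The next alternatives, and the comparison of each cluster with the other cells of its own library, were chosen after seeing the data. In cells of 3000 to 6000 UMIs, the day 1 and day 5 shares were 12.93% and 15.13% and the ratios 1.015, 1.188 and 1.171. There 3 genes were higher and 2 lower at day 1, and 4 higher and 2 lower at day 5, than in steady state. Without clusters of shallow cells, the shares were 12.68%, 12.98% and 15.24%, the ratios 1.023, 1.201 and 1.174, and 2 genes were lower at day 1 than in steady state.

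By share of ribosomal protein UMIs, 5, 3 and 4 genes differed at least 1.5-fold in the 3 comparisons. Without genes that have a -ps copy or a paralog these were 1, 0 and 2, since fewer genes were counted. The highest cluster share was 17.4% at resolution 0.5 and 19.4% at resolution 2, and the lowest 12.6% and 10.7%. The cause of the other changes was not tested. Genes under 100 CPM rest on few UMIs in steady state (67 for Rpl22l1), and a level there limits what can be told apart.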
